A study of Mus musculus with 4 samples.

Results

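The 10 genes described here are known targets of the transcription factor p53 other than the p21 gene Cdkn1a, and were followed in single cells of mouse pancreatic islets. They were Ccng1, Phlda3, Zmat3, Trp53inp1, Rps27l, Bax, Mdm2, Eda2r, Sesn1 and Ddit4l, 10 of the 21594 gene symbols counted, and all 10 were found in each of the 4 samples. They had been chosen with the mutant effect per cell type and the co-variation with Cdkn1a already known. Their values in those measures are therefore given as descriptions, without a test, and nothing is read from counts of members past a threshold. The study asked what the stress-response transcription factor Atf4 does in insulin-producing beta cells.

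The mutant group was 2 pools of islets of genotype Atf4F/F; Ins1Cre, in which both Atf4 alleles carry sites for the Cre recombinase and Cre is expressed from the insulin gene Ins1, so that recombination is directed to beta cells. The control group was 2 pools of genotype Atf4F/F, with the same floxed alleles and no Cre. Both groups were untreated mice of 2 months. The labels give each pool as 2 males and 2 females in one place and as islets of 3 to 4 mice in another, and cells with and without a tdT reporter were sequenced together. The spread between samples is thus the spread between pools, not between mice.

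p53 is kept low by the ubiquitin ligase Mdm2, itself the product of a p53 target gene, and rises in activity when DNA is damaged, ribosome assembly fails or growth signals are unbalanced. Its targets act in cell cycle arrest (Cdkn1a, Ccng1), in apoptosis (Bax, Zmat3, Phlda3, Trp53inp1, Eda2r), in feedback on p53 (Mdm2, Ccng1) and in restraint of growth signalling through mTOR and Akt (Sesn1, Ddit4l, Phlda3). Since p53 itself is controlled mostly at the level of the protein, the RNA of its targets is commonly used as a readout of its activity.

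p53 binds pairs of a 10-base half-site, and the windows before the transcription start of the members were searched for it to show the DNA that lies there. RefSeq promoter sequences (GRCm38.p6, from 250 bases before to 50 bases after a start) were at hand for 8 of the 10 members. The p53 half-site consensus reads the same on both strands, and was matched in full in the window of 6 of the 8 (75%), namely Ccng1, Bax, Mdm2, Ddit4l, Rps27l and Sesn1, against 9.55% of 27025 genes. For Rps27l and Sesn1 the match lay in the window of a second start. None of the 8 held 2 full matches within 13 bases of each other, which 0.0740% of all genes did. Only full matches were counted. A pair with a mismatched half-site, such as the bases directly before the marked one in Ccng1, was therefore not counted. The 250 bases before the start are shown for 3 members with a match and for Phlda3, which had none and had the largest fitted change of the 10. Capitals mark the half-site, which begins 185 bases before the start in Ccng1 (chr11:40755287-40755536, minus strand), 201 bases before it in Bax (chr7:45466899-45467148, minus strand) and 186 bases before it in Mdm2 (chr10:117710759-117711008, minus strand); the window of Phlda3 is chr1:135765835-135766084 on the plus strand.
Ccng1: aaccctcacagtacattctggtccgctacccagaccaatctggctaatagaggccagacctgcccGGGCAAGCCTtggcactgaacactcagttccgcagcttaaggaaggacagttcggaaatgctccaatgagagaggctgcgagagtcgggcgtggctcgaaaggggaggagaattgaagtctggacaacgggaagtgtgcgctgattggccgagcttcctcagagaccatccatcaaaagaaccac
Bax: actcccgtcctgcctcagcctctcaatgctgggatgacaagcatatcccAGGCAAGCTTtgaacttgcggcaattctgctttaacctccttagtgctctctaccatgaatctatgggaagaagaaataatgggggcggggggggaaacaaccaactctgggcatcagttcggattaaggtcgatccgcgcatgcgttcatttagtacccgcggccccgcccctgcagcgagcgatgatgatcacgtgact
Mdm2: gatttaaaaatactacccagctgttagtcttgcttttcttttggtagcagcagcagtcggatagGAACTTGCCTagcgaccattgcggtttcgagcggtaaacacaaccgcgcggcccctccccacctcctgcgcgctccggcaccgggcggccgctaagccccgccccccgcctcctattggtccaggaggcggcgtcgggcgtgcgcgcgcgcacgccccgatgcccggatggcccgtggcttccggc
Phlda3: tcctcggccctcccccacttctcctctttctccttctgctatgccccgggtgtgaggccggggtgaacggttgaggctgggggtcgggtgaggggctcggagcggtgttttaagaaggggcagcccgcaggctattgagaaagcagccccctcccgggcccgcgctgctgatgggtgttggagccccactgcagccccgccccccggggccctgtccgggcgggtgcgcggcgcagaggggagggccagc
A match describes these letters and is not a measured binding site.

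The 4 libraries held 2352 to 3272 barcodes and 13706563 to 17655893 counted unique molecular identifiers (UMIs), and 6995 cells passed limits of 500 genes or more and less than 20% mitochondrial counts. Cell types were set by hormone RNA alone. Cells with at least 15% of their UMIs from Ins1 and Ins2, and under 1% from each other hormone, were called beta-like (765 and 846 cells in mutants 1 and 2, 1254 and 1097 in controls 1 and 2). The same was done for glucagon (693 alpha-like cells), somatostatin (199 delta-like) and pancreatic polypeptide (93 PP-like). In the beta-like cells 7 of 8 beta cell markers other than insulin were detected, together at 57396 to 63257 counts per 1000000 (CPM). Most of this sum was Iapp (52278 to 58771 CPM), which also had 17411 to 24876 CPM in the delta-like cells. Slc2a2, Nkx6-1, G6pc2, Ucn3 and Slc30a8 had 270 to 1921 CPM in the beta-like cells. Mafa, counted among the 7, was nearly absent there (0 to 0.337 CPM). In the alpha-like cells the alpha markers stood at 20370 to 25107 CPM. Most of this sum was Ttr (15282 to 19950 CPM), which also had 770 to 1375 CPM in the beta-like cells. In the delta-like cells 4 delta markers other than somatostatin stood out, Rbp4 (2836 to 4571 CPM), Cd24a (743 to 843 CPM), Arg1 (563 to 776 CPM) and Hhex (286 to 398 CPM), and Pyy, listed as a PP marker, was also high (29861 to 36370 CPM). Ghsr, Bche, Mest, Dlk1 and Nhs, also listed as delta markers, stood at only 0 to 131 CPM in the delta-like cells. In the PP-like cells the PP markers other than Ppy summed to 118094 to 134926 CPM, nearly all of it Pyy (117269 to 134109 CPM). Each pair of libraries shared 41 to 82 barcodes.

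The targeted gene was measured first, and its level differed between the mutants. Summed over beta-like cells, mutant 1 had 2.52 CPM of Atf4 and mutant 2 had 120 CPM, against 362 and 372 CPM in control pools 1 and 2. The sources used here do not give which part of Atf4 is flanked by the Cre sites. Mutant 2 kept a part of its Atf4 RNA, and most CPM values are therefore given for each mutant apart. Fitted log2 changes, their medians and group means take both mutants together. Cdkn1a, which shares the regulator of the members, had 483 and 289 CPM in mutant pools 1 and 2, against 17.7 and 26.9 CPM in control pools 1 and 2.

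In beta-like cells 9 of the 10 members had more RNA in both mutants than in either control, as had 23.2% of the 13464 genes tested. Levels are counts summed over the beta-like cells of a sample and scaled to CPM with TMM factors. The changes spanned a wide range. By the ratio of group means, Phlda3, Ddit4l and Eda2r were over 10-fold higher in the mutants and Mdm2 and Bax under 2-fold higher. Sesn1 alone showed no separation. The median log2 change of the 10 was 1.31, beside 0.00706 for all genes tested. The plot of member levels in beta-like cells shows the 4 samples for each gene.

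**Figure D1:**
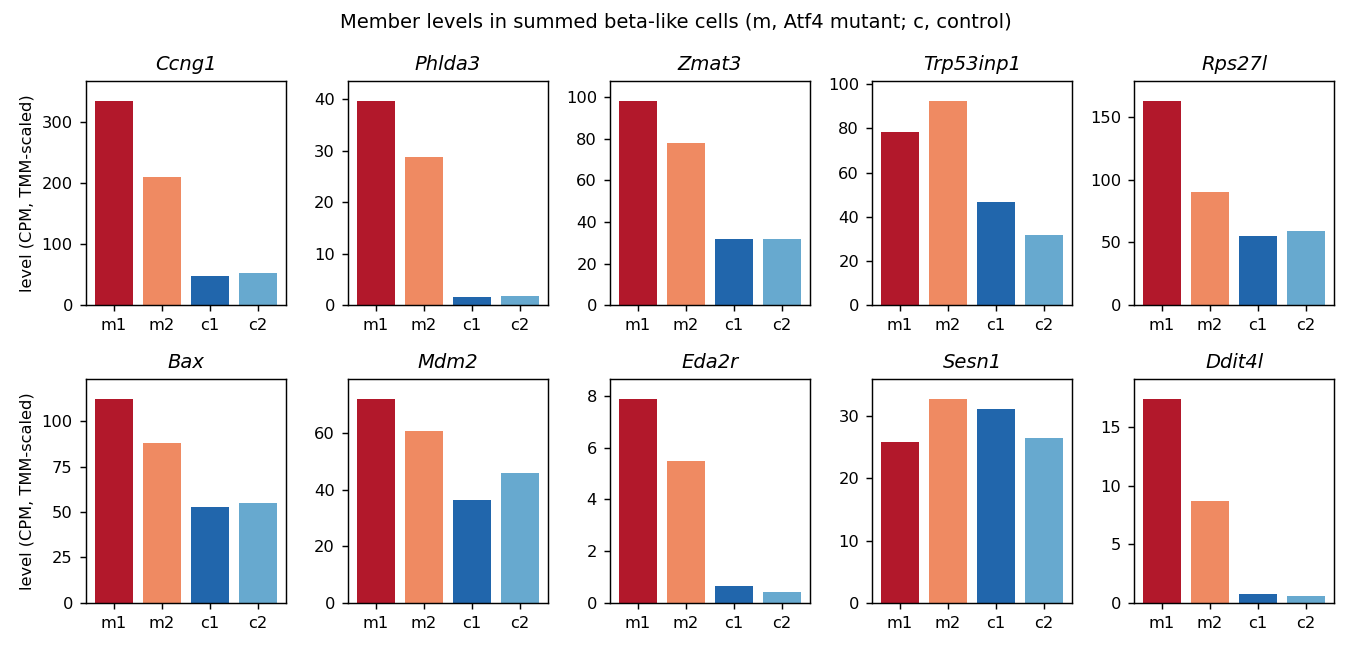
Level of each of the 10 members in summed beta-like cells (y axis, TMM-scaled CPM, from 0) in Atf4 mutants 1 and 2 (m1, m2) and controls 1 and 2 (c1, c2), 1 bar per sample. Both mutant bars stand above both control bars in every panel but that of Sesn1.

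Among the members that act in arrest and feedback, Ccng1 (chromosome 11, 40748552 to 40755311, GRCm38), which encodes cyclin G1, a partner of a phosphatase that acts on Mdm2, had 333 and 210 CPM in mutant pools 1 and 2, against 48.4 and 52.7 CPM in control pools 1 and 2. The groups were far apart, although the mutants differed more from each other than the controls did. The mean was 272 ± 87.0 CPM in mutants and 50.6 ± 2.98 CPM in controls (SD, n = 2 each), a log2 change of 2.43 ± 0.205 (SE). Mdm2 (chromosome 10, 117688875 to 117710758), the ligase that marks p53 for degradation, had 72.2 and 61.0 CPM in mutant pools 1 and 2, against 36.6 and 46.0 CPM in control pools 1 and 2. It was higher in both mutants, with the smallest change of the 9 (log2 0.69 ± 0.150 SE).

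Of the members linked to apoptosis, Bax (chromosome 7, 45461697 to 45466898), a protein that permeabilises the mitochondrial outer membrane, had 112 and 87.8 CPM in mutant pools 1 and 2, against 52.6 and 55.1 CPM in control pools 1 and 2 (log2 change 0.89 ± 0.144 SE). Zmat3 (chromosome 3, 32334792 to 32366014), an RNA-binding zinc finger protein, had 98.0 and 77.8 CPM in the mutants, against 31.9 and 31.6 CPM in the controls (1.47 ± 0.141). The controls of Zmat3 were almost equal, and the lower mutant was more than 2-fold above them. Phlda3 (chromosome 1, 135766119 to 135769136) encodes a small lipid-binding protein that competes with the kinase Akt for the membrane and is known in islets as a brake on Akt. It had 39.6 and 28.8 CPM in mutant pools 1 and 2, against 1.52 and 1.87 CPM in control pools 1 and 2, from 377 and 273 UMIs in the mutants, against 16 and 22 in the controls. Its log2 change of 4.32 ± 0.270 (SE) was the largest fitted change of the 10, and close to that of Cdkn1a (4.11 ± 0.266). Eda2r (chromosome X, 97333840 to 97377216), the receptor for ectodysplasin A2, had 7.87 and 5.48 CPM in the mutants, against 0.664 and 0.425 CPM in the controls, which rest on 7 and 5 UMIs (3.60 ± 0.443).

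Trp53inp1 (chromosome 4, 11156431 to 11174379), a nuclear protein that promotes p53-dependent apoptosis and autophagy, was the member among the 9 whose level was higher in mutant 2 than in mutant 1. It had 78.3 and 92.2 CPM in mutant pools 1 and 2, against 46.8 and 31.9 CPM in control pools 1 and 2 (log2 change 1.12 ± 0.185 SE). Rps27l (chromosome 9, 66946086 to 66949516), a ribosomal protein paralog, had 162 and 90.2 CPM in the mutants, against 55.1 and 59.0 CPM in the controls (1.15 ± 0.240). The mutants of Rps27l differed by more than the lower of them did from the controls. Rps27l is nearly identical to Rps27 in part of its sequence, so its counts are uncertain where reads could be split between the copies; Rps27 had 266 and 236 CPM in the mutants, against 318 and 310 CPM in the controls.

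Of the members that restrain mTOR signalling, Ddit4l (chromosome 3, 137621612 to 137628333) had 17.4 and 8.75 CPM in mutant pools 1 and 2, against 0.758 and 0.595 CPM in control pools 1 and 2, from 166 and 83 UMIs in the mutants, against 8 and 7 in the controls (log2 change 4.26 ± 0.509 SE). Sesn1 (chromosome 10, 41809935 to 41908424), a sestrin that senses leucine and holds mTOR in check, had 25.8 and 32.7 CPM in the mutants, against 31.1 and 26.4 CPM in the controls. The groups of Sesn1 overlapped, and its log2 change was 0.02 ± 0.161 (SE).

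The relatives of the members and the rest of the pathway were read from lists, for which the medians are set beside that of all genes. Genes were called by edgeR's quasi-likelihood test with Benjamini-Hochberg adjustment over all genes, which called 0.334% of all genes higher and 0.126% lower. Of 50 other p53 targets (without Cdkn1a), 43 were tested, 2 were called higher and 0 lower. With an unadjusted p below 0.05, 13 were higher and 1 was lower. The share of all genes at that unadjusted level is not given, so no finding is read from such counts here or below. In both mutants 23 of the 43 were above both controls and 4 below, where 23.2% and 22.7% of all genes tested were. The median log2 change of the 43 was 0.24. Psrc1, a microtubule-associated protein, had 3.57 and 2.84 CPM in mutant pools 1 and 2, against 0.0948 and 0.255 CPM in control pools 1 and 2 (edgeR adjusted p = 0.0281). It rested on 34 and 27 UMIs in the mutants, against 1 and 3 in the controls, a ratio per total count of 19.4 (95% exact interval 7.2 to 73.5, counting error only). Pvt1, a long noncoding RNA known as a neighbour of the Myc gene, had 11.0 and 9.27 CPM in the mutants, against 3.51 and 3.06 CPM in the controls (log2 change 1.63 ± 0.234 SE, edgeR adjusted p = 0.0384). Neither call held without mutant 1 or without control 1, where 0 of the other targets were called.

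No regulator of p53 passed the test in beta-like cells. Of 19 tested, 0 were called in either direction by edgeR, and 2 stood higher and 4 lower with an unadjusted p below 0.05. Trp53, the p53 gene, had 17.4 and 19.5 CPM in mutant pools 1 and 2, against 24.2 and 24.97 CPM in control pools 1 and 2 (log2 change −0.41 ± 0.141 SE, edgeR adjusted p = 0.249). Mdm4, the partner of Mdm2, had 29.8 and 35.2 CPM in the mutants, against 44.7 and 43.0 CPM in the controls (−0.43 ± 0.130, edgeR adjusted p = 0.210). Both genes were lower in both mutants than in either control, as were 22.7% of all genes tested, and neither passed. Of 12 tested paralogs of the members 0 were called (unadjusted p below 0.05 for 1 that was higher and 3 that were lower), with a median log2 change of −0.22. Ccng2, the sister gene of Ccng1, had 6.71 and 10.2 CPM in the mutants, against 17.4 and 12.8 CPM in the controls, and Ddit4, that of Ddit4l, had 64.7 and 76.4 CPM in the mutants, against 86.3 and 79.6 CPM in the controls.

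Other features of the beta-like cells moved with the groups, and their part in the result was not tested. All 20 Atf4 targets listed were tested, 0 were called, and 14 were lower at an unadjusted p under 0.05 (median log2 change −1.10). Of 16 immediate early genes, which respond to handling of cells, 11 were below both controls in both mutants, where 22.7% of all genes were. Of the same 16, 9 were lower at an unadjusted p under 0.05, with 0 called. Of 13 cell cycle genes tested 0 were called and 3 were lower at that level. The share of all genes at that unadjusted level is not given. The 10 acinar markers summed to 33.4 and 45.0 CPM in mutant pools 1 and 2, against 128 and 226 CPM in control pools 1 and 2, and the 9 alpha markers to 2722 and 2399 CPM in the mutants, against 1913 and 2050 CPM in the controls. The median beta-like cell had 8772 and 8697 UMIs in the mutants, and 6318 and 7726 UMIs in the controls. With cells of at least 8000 UMIs alone, the median log2 change of the members was 1.31 again. Macrophage markers in beta-like cells summed to 66.0 and 115 CPM in the mutants, against 151 and 145 CPM in the controls.

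The fitted changes were small in alpha-like cells. There 8 members had enough counts to be fitted (not Eda2r and Ddit4l), and their log2 changes lay between −0.37 and 0.52. Both mutants were above both controls for 2 members and below for 1, where 20.3% and 19.4% of all genes were. The median log2 change of the 8 was −0.08, beside −0.01 for all genes. Ccng1 averaged 61.7 ± 12.4 CPM in alpha-like cells of mutants and 77.5 ± 7.11 CPM in those of controls (SD, n = 2 each), with both mutants below both controls and a log2 change of −0.34 ± 0.236 (SE). Phlda3 had 12.1 and 8.98 CPM in the mutants, against 15.4 and 10.7 CPM in the controls. Trp53inp1 had the highest change of the 8, at 194 and 227 CPM in the mutants, against 173 and 121 CPM in the controls (0.52 ± 0.189). Cdkn1a had 69.4 and 42.2 CPM in the mutants, against 57.3 and 38.9 CPM in the controls, and the groups overlapped. In the alpha-like cells, endothelial markers summed to 218 and 207 CPM in the mutants, against 67.5 and 50.0 CPM in the controls, and 6 of 16 immediate early genes were called lower and 0 higher, where 0.116% of all genes were called lower and 0.209% higher; their part in these values was not tested.

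The mutant effect in beta-like cells less that in alpha-like cells was fitted for every gene, with the sample as a block. The log2 difference was 4.61 ± 0.536 (SE) for Phlda3, 2.73 ± 0.224 for Ccng1, 1.70 ± 0.271 for Zmat3, 1.24 ± 0.228 for Bax, 1.01 ± 0.231 for Rps27l, 0.59 ± 0.178 for Trp53inp1, 0.52 ± 0.254 for Mdm2 and −0.08 ± 0.236 for Sesn1. Eda2r and Ddit4l had too few alpha-like counts for a difference to be given. The values that chose the members enter this difference, so it is a description without a test.

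**Figure D2:**
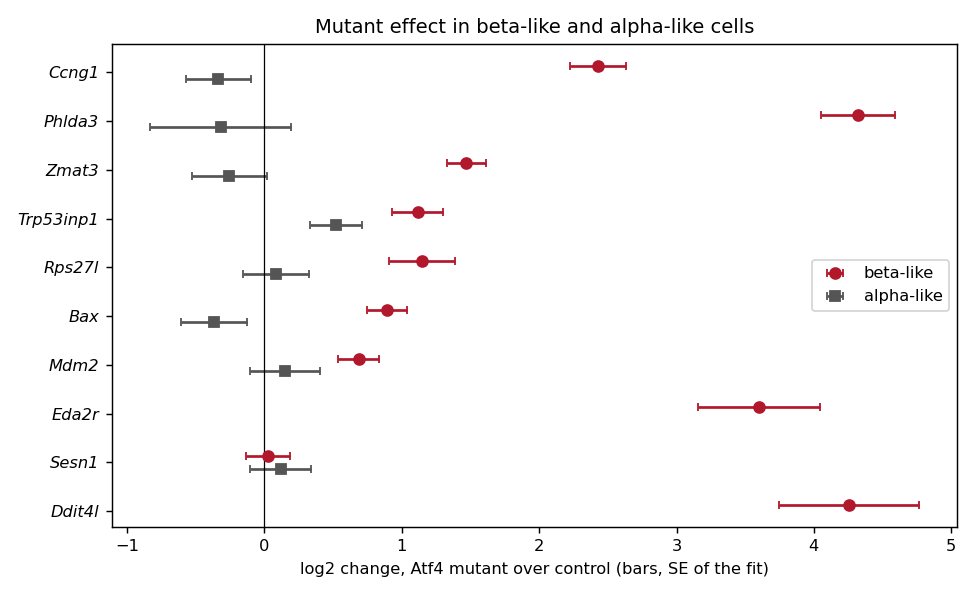
Log2 change of each member, Atf4 mutant over control (x axis), in beta-like cells (circles) and alpha-like cells (squares), with bars of 1 SE of the fit on 2 samples per group. The circles of 9 members lie right of 0, that of Sesn1 lies at 0.02, the squares lie between −0.37 and 0.52, and Eda2r and Ddit4l have no square because too few counts were found.

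Delta-like and PP-like cells gave few counts. In delta-like cells 2 members could be fitted (Rps27l and Sesn1, both log2 0.22), and in PP-like cells 1 (Trp53inp1, −0.31). The summed level of the 10 members, as CPM without scaling, was 424 and 351 in the delta-like cells of mutant pools 1 and 2, against 367 and 291 in those of the control pools. It was 527 and 451 in PP-like cells of the mutants, against 523 and 367 in the controls, and 613 and 603 in alpha-like cells of the mutants, against 624 and 507 in the controls. In beta-like cells the same sum was 1015 in mutant 1 and 702 in mutant 2, against 284 and 302 in the controls. Cells with under 5% insulin and under 1% of each other hormone had 470 and 451 in the mutants, against 421 and 448 in the controls. This class differed in make-up between the groups. Endothelial markers summed to 8356 and 15987 CPM there in the mutants, against 23470 and 27320 CPM in the controls. Macrophage markers summed to 15180 and 14273 CPM in the mutants, against 8764 and 7679 CPM in the controls. The member sums of this class thus compare different mixtures of cells.

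In both controls every member had a lower level in beta-like cells than in alpha-like cells. The control beta-like level enters the contrast with which the members were chosen. The share of all genes that were lower there is not given, so no finding is read from this. Hormone shares also differ between the types and lower the CPM of all other genes. In control 1, Ins1 and Ins2 had 143076 and 219277 CPM in beta-like cells, and Gcg 240341 CPM in alpha-like cells. In CPM without scaling, Phlda3 had 1.41 and 1.85 in beta-like cells of controls 1 and 2 and 14.6 and 10.5 in their alpha-like cells. Eda2r had 0.616 and 0.420 in beta-like control cells and 13.2 and 5.27 in alpha-like ones, and Ddit4l 0.704 and 0.588 against 5.30 and 5.27. Sesn1 and Trp53inp1 were also lower in control beta-like cells (28.9 and 26.1, and 43.5 and 31.5) than in control alpha-like cells (70.2 and 79.0, and 164 and 118). In the beta-like cells of mutants 1 and 2, Phlda3 (42.4 and 29.0) and Ddit4l (18.7 and 8.83) stood above their levels in the alpha-like cells of the same mutants (12.0 and 8.76 for Phlda3, 3.28 and 5.25 for Ddit4l). Alpha-like values of Eda2r and Ddit4l rest on 3 to 10 UMIs per sample, and those of Phlda3 on 8 to 11.

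Within the mutant beta-like cells the members varied together with Cdkn1a. Cells with at least 8000 UMIs were thinned to 8000 each, which left 397 and 453 cells in mutants 1 and 2 and 515 and 535 in controls 1 and 2 (368 and 393 shallower beta-like cells were left out in the mutants, 739 and 562 in the controls). The 10 members together gave a median of 8 and 4 UMIs per cell in mutants 1 and 2, against 2 and 2 in controls 1 and 2. The means were 8.20 and 5.67 UMIs in the mutants, against 2.29 and 2.36 UMIs in the controls. The distribution in mutant 1 lay well above the controls, and that in mutant 2 lay between, with quartiles of 2 and 8 UMIs, against 5 and 11 in mutant 1 and 1 and 3 in each control.

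**Figure D3:**
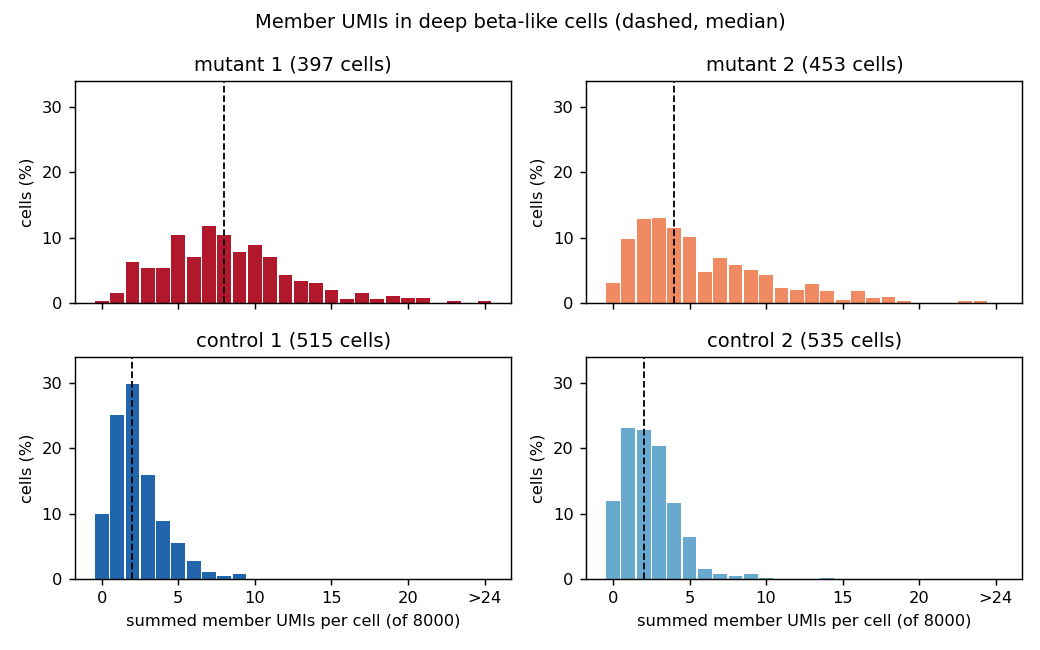
Distribution over deep beta-like cells of the summed UMIs of the 10 members after thinning each cell to 8000 UMIs (x axis, the last bar over 24; y axis, percent of cells), in mutant 1, mutant 2, control 1 and control 2. Dashed lines mark medians of 8, 4, 2 and 2.

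Over the cells, Spearman's rho between the summed members and Cdkn1a was 0.563 in mutant 1 (397 cells) and 0.668 in mutant 2 (453 cells), against 0.110 in control 1 (515) and 0.116 in control 2 (535). Cdkn1a averaged 4.22 and 2.36 UMIs per thinned cell in the mutants, against 0.117 and 0.252 in the controls, which leaves little range over which a relation could show in the controls. The cells of a sample share a library and, here, a fixed depth, so these are descriptions. At 8000 UMIs Ccng1 had the highest rho with Cdkn1a of all ranked genes in both mutants, at 0.451 among 11719 genes and 0.565 among 11326. Zmat3 (0.289 and 0.346 in mutants 1 and 2) and Bax (0.257 and 0.352) ranked 2 and 3 in mutant 1 and 6 and 5 in mutant 2. Trp53inp1 (0.207 and 0.302), Rps27l (0.199 and 0.314), Phlda3 (0.165 and 0.344), Ddit4l (0.130 and 0.202), Mdm2 (0.124 and 0.153) and Eda2r (0.0784 and 0.161) followed, and Sesn1 was near 0 (−0.0032 and −0.0088). Weak values carry no finding. Single values moved with the thinning depth: at 5000 UMIs Ccng1 ranked 1 in mutant 1 and 2 in mutant 2, and in mutant 1 the rho was 0.0826 for Phlda3, 0.0655 for Ddit4l and 0.187 for Zmat3. In mutant 2 cells with no Atf4 count Ccng1 ranked 1 (0.372) and Bax 52 (0.211).

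When mutant cells were grouped by their Cdkn1a count, those with more Cdkn1a had a higher summed level of the members. In mutant 1 it was 544, 892, 1111 and 1549 UMIs per 1000000 in cells with 0, 1 to 3, 4 to 7 and 8 or more Cdkn1a UMIs (62, 138, 126 and 71 cells). In mutant 2 it was 391, 689, 1094 and 1548 (183, 160, 68 and 42 cells). At 8 or more Cdkn1a UMIs the counting intervals of the mutants overlapped (1449 to 1655 and 1417 to 1687). Ccng1 stood at 173 in mutant 1 and 87.4 in mutant 2 in cells with no Cdkn1a UMI, and at 574 and 565 in those with 8 or more. Sesn1 showed no such order, at 20.2, 24.5, 31.7 and 19.4 across the 4 classes in mutant 1 and 30.7, 29.7, 31.2 and 29.8 in mutant 2. On few UMIs, Ddit4l did not rise at every step in mutant 1 (8.06, 17.2, 29.8 and 24.6). Eda2r did so in neither mutant (2.02, 9.96, 6.94 and 21.1 in mutant 1, and 2.05, 1.56, 14.7 and 20.8 in mutant 2). In mutant 2 the level of Atf4 ran the other way, at 195, 97.7, 25.7 and 5.95 across the 4 classes, so cells with Cdkn1a and members high were those with little Atf4 RNA. Among cells of mutant 2 with no Atf4 count alone, the rho of the summed members with Cdkn1a was 0.537.

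**Figure D4:**
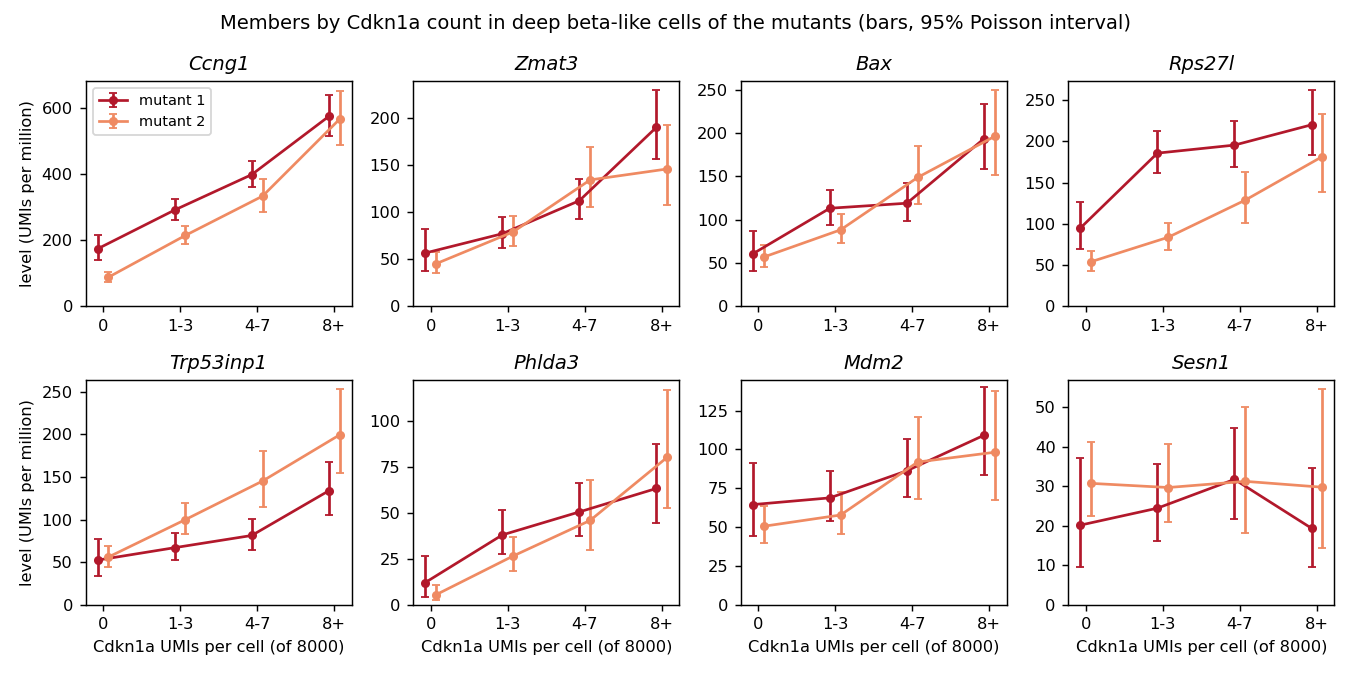
Level of 8 members (y axis, UMIs per 1000000, thinned cells) by the Cdkn1a count of the cell after thinning to 8000 UMIs (x axis, 0, 1 to 3, 4 to 7, 8 or more) in deep beta-like cells of mutant 1 and mutant 2, with 95% Poisson intervals. The level is highest at 8 or more Cdkn1a UMIs in both mutants in all panels but that of Sesn1. Eda2r and Ddit4l are not plotted.

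Between single members the values were low. Over the 45 pairs, the median rho was 0.0592 in mutant 1 and 0.102 in mutant 2, against −0.0007 in control 1 and, over the 36 pairs that could be ranked, 0.0175 in control 2. The highest was that of Ccng1 and Phlda3 in mutant 2 (0.380). Among genes that are no members, with at least 0.2 thinned UMIs per cell in both mutants (4901 genes), those whose count followed the summed members most closely by mean rho over the mutants were Cdkn1a (0.615), Itm2b (0.414), Exoc4 (0.345), Scg2 (0.304), 9030617O03Rik (0.240), Gng12 (0.232), Cpe (0.218), 1700120G11Rik (0.205) and Cacna1i (0.195). The members had been chosen with their co-variation with Cdkn1a known, so the place of Cdkn1a in this list is no finding. The rho of Itm2b was 0.245 in mutant 1 and 0.583 in mutant 2, against 0.111 in control 1 and 0.0853 in control 2. That of Scg2 was 0.0982 and 0.509 in mutants 1 and 2, against 0.0793 and 0.138 in controls 1 and 2. The mutant 1 value of Scg2 thus lay between those of the controls. Every gene named here had a higher rho in mutant 2 than in mutant 1. The mean count did not follow, at 9.47 and 7.89 thinned UMIs per cell for Itm2b and 48.5 and 40.0 for Scg2 in mutants 1 and 2. Mutant 2 held cells with and without Atf4 counts, and the part of that mix in these values was not tested.

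Mutant 2 let cells with and without Atf4 RNA be set side by side in one library. Of its deep beta-like cells 231 had no Atf4 count and 136 had 3 or more, against 384 and 1 in mutant 1; in controls 1 and 2, 13 and 20 had none and 407 and 424 had 3 or more. The cells with no Atf4 count had a summed member level of 1071 and 1019 CPM in mutant pools 1 and 2, against 315 and 345 CPM in the control pools, where they were few. In mutant 2 cells with 3 or more Atf4 counts it was 438 CPM. Between the cells without Atf4 counts, the ratio of mutant 2 to mutant 1 was 0.952 (95% exact interval 0.915 to 0.989, counting error only). Rps27l and Trp53inp1 had 182 and 124 CPM and 89.1 and 127 CPM in mutants 1 and 2. Their ratios were 0.681 (0.612 to 0.757) and 1.43 (1.26 to 1.61). Ccng1 had 375 and 349 CPM (0.931, 0.871 to 0.994), and the intervals of the other members included 1.

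The cells that kept Atf4 in mutant 2 were mostly male, with Y-linked and no Xist counts in 114 of the 136, and Xist and no Y-linked counts in 2. The comparison was therefore repeated within Y-linked cells of mutant 2, of which 65 had no Atf4 count and 114 had 3 or more. Ccng1 had 365 CPM in the cells without Atf4 counts and 81.5 CPM in those with 3 or more (ratio 4.48, 95% exact interval 3.74 to 5.38), Phlda3 42.1 against 6.90 CPM (6.09, 3.33 to 11.8), and Ddit4l 19.6 against 1.84 CPM (10.7, 3.60 to 42.7). Zmat3 had 129 against 46.9 CPM, Bax 131 against 52.9 CPM, Trp53inp1 161 against 66.3 CPM, Rps27l 122 against 68.1 CPM and Mdm2 72.0 against 46.5 CPM. Their ratios lay between 1.55 and 2.75 with intervals above 1. Sesn1 (31.8 against 38.7 CPM, ratio 0.822, 0.535 to 1.24) and Eda2r (5.61 against 1.84 CPM, ratio 3.05, 0.723 to 14.7) had intervals that include 1. These intervals cover counting error within 1 pool, which may hold cells of different mice, and differences between mice and loss of Atf4 cannot be told apart in it.

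The Atf4-keeping male cells of mutant 2 had a higher summed level of the members than the matching cells of either control pool. Their summed members stood at 411 CPM, against 312 CPM in the matching cells of control 1 (ratio 1.32, 1.20 to 1.45) and 324 CPM in those of control 2 (1.27, 1.16 to 1.39). Phlda3 was also higher there (6.90 CPM, against 1.50 and 1.84 CPM), at ratios of 4.597 (1.46 to 19.0) and 3.74 (1.37 to 11.8) to controls 1 and 2. Cdkn1a had 73.6 CPM in these cells of mutant 2, against 20.3 CPM in control 1 (ratio 3.63, 2.65 to 5.04) and 31.7 CPM in control 2 (2.33, 1.81 to 3.01). Trp53inp1 (66.3 CPM, against 49.9 and 31.7 CPM), Ccng1 (81.5 CPM, against 44.3 and 59.0 CPM) and Zmat3 (46.9 CPM, against 30.4 and 31.7 CPM) were above both controls, with ratio intervals above 1. Mdm2 (46.5 CPM, against 37.5 and 38.7 CPM) and Sesn1 (38.7 CPM, against 37.5 and 29.2 CPM) were above both as well, with intervals that include 1. So were Ddit4l (1.84 CPM, against 0.751 and 1.23 CPM) and Eda2r (1.84 CPM, against 0.375 and 0 CPM). For Eda2r no ratio to control 2 could be formed. Bax (52.9 CPM, against 47.3 and 55.9 CPM) and Rps27l (68.1 CPM, against 61.9 and 74.4 CPM) lay between the controls. All these ratios set a single mutant pool against a single control pool. Their intervals cover counting error only and not the spread between pools, which was wide for Trp53inp1 (49.9 and 31.7 CPM in the controls). An interval above 1 is therefore no test of an excess over the controls. Among all beta-like cells with Xist counts, where Atf4 stood at 1.47 and 7.99 CPM in mutants 1 and 2, the summed members had 1023 and 971 CPM, against 288 and 310 CPM in control pools 1 and 2. Among Y-linked cells, where Atf4 stood at 3.64 and 190 CPM, they had 1030 and 577 CPM, against 295 and 311 CPM.

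**Figure D5:**
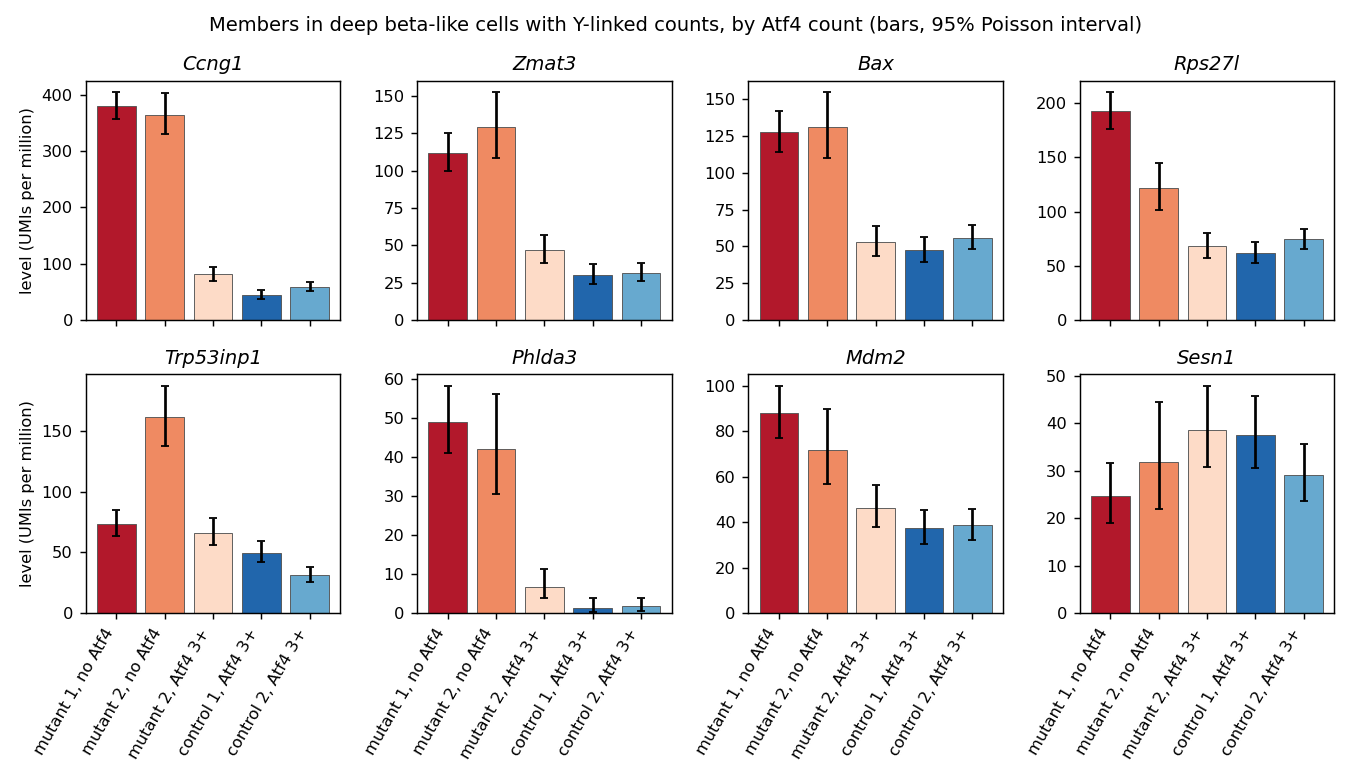
Level of 8 members (y axis, CPM without scaling, 95% Poisson intervals) in deep beta-like cells with Y-linked and no Xist counts, for cells with no Atf4 count of mutant 1 and mutant 2 and cells with 3 or more Atf4 counts of mutant 2, control 1 and control 2. For Ccng1, Zmat3, Bax and Phlda3 the first 2 bars are close and the other 3 far lower; Sesn1 shows no such step.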

How the data were processed

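The deposited matrices hold whole-number UMI counts per gene symbol and barcode; per the submitters' processing notes the authors used the mm10 build and Seurat. The aligner and counting tool are not given in the sources used here. The highest count in a library was 4078 to 4093, near the 4096 sequences of a 6-base UMI, so insulin counts are near saturation in the deepest cells. The members and all gene lists were chosen with earlier results of these data known. Hormone limits were set on the pooled shares of all samples: for alpha-like cells at least 5% glucagon, for delta-like and PP-like cells at least 3% of their hormone, each with under 5% insulin and under 2% of the others. No doublet caller was run; 1381 insulin-high cells with a second hormone were left out. Sums of counts per sample and type went into edgeR 4.0.16 under R 4.3.3 (filterByExpr, TMM, quasi-likelihood test, Benjamini-Hochberg adjustment, threshold 0.05); DESeq2 1.42.0 was an alternative. Python 3.11.15, numpy 2.4.6, scipy 1.17.1 and pandas 2.3.3 did the rest, with seeded thinning. Beta-like sums of replicates were not copies of each other, with a chi-square of 10.1 (mutants) and 12.5 (controls) for each degree of freedom. Intervals for counts are 95% exact Poisson or binomial and cover counting error only. Fits and correlations were tested on simulated data. The genes with the most similar pattern were named by the highest mean rho with the summed members, and one of them is not reported here; from the list of other p53 targets all that passed were named, with Trp53 and Mdm4. Ccng2, Ddit4 and Rps27 were chosen as relatives of members after their values were seen. Gene positions are from GENCODE vM21.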

Additional observations from a re-analysis of the deposited data

How the results depend on the processing

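The median log2 change of the 10 members in beta-like cells was 1.31, and 1.26 to 1.55 with 1 library left out (1.55 without mutant 2). In beta-like cells every member but Sesn1 kept a log2 change above 0 under all alternatives run; that of Sesn1 ran from −0.18 to 0.19. The median was −0.08 in alpha-like cells (−0.29 to 0.04 with 1 library left out), 0.22 in delta-like cells (−0.0814 to 0.69) and −0.31 in PP-like cells (−0.74 to 0.95), so the last 2 rest on single libraries. The median beta-like minus alpha-like difference of the 8 members fitted in both was 1.13 (0.81 without control 1 to 1.41 without control 2). Other p53 targets called higher numbered 2, and 7 when library totals alone set the scaling (which moves the median log2 change of all genes to 0.13), 10 with a replicate block, 6 with DESeq2, 5 in cells with Xist counts alone and 0 in cells with Y-linked counts alone; leaving out 1 library gave 0 to 5 (0 without mutant 1 or control 1, 5 without mutant 2, 3 without control 2). Genes called higher and lower in beta-like cells were 45 and 17, against 149 and 26 with library totals, 24 and 10 without a filter on low counts, 153 and 93 with the replicate block, 130 and 92 with DESeq2, 57 and 62 with Xist counts, 6 and 2 with Y-linked counts, 33 and 10 with a stricter cell filter, and 31 and 10 in cells of at least 8000 UMIs. With 1 library left out they were 28 and 15 (without mutant 1), 99 and 79 (without mutant 2), 33 and 37 (without control 1), and 58 and 32 (without control 2). The replicate numbers are not shown to pair the samples (correlation of deviations −0.171 over 4271 genes); the crossed pairing, given by the first part of the library names, called 56 genes higher and 24 lower. The rho of the summed members with Cdkn1a was 0.425 in mutant 1 and 0.544 in mutant 2 at 5000 UMIs per cell, and 0.537 in mutant 2 cells with no Atf4 count. Of 40 alternative values of rho for single members 22 moved by more than the spread between mutants. The cause of these shifts was not tested. With 1 library left out of a group of 2, the lone sample is assumed to vary like the other group.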
